A study of Rattus norvegicus with 18 samples.

Results

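The genes described are 5 genes of the smooth muscle cytoskeleton and of membrane excitability in the rat bladder, chosen by Ensembl identifier out of 32754 listed genes. They are Acta2 (ENSRNOG00000058039), Des (ENSRNOG00000019810), Cav1 (ENSRNOG00000056836), Kcnma1 (ENSRNOG00000005985) and Vim (ENSRNOG00000018087). All 5 were among the 15740 genes that passed the filter on low counts.

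Smooth muscle cells shorten when actin and myosin filaments slide past each other, and intermediate filaments tie this apparatus to the cell surface and to neighbouring cells. Acta2 encodes smooth muscle alpha-actin, the actin of contractile smooth muscle that myofibroblasts also make, and Des encodes desmin, the intermediate filament protein of muscle. Vim encodes vimentin, the intermediate filament protein of fibroblasts, endothelium and leukocytes. Cav1 encodes caveolin-1, the coat protein of the membrane pits called caveolae, and Kcnma1 encodes the pore-forming subunit of the BK channel, a potassium channel opened by calcium and depolarisation that dampens the excitability of bladder smooth muscle.

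The samples came from male Sprague Dawley rats labelled WT. SCI-vehicle and SCI-inosine rats had a complete spinal cord transection at thoracic level 8, at an age of 6 to 7 weeks and a weight of about 250 g. They were then injected intraperitoneally each day for 8 weeks, SCI-vehicle rats with 12 mM sodium bicarbonate at pH 9.2 and SCI-inosine rats with 225 mg/kg of inosine, a purine nucleoside. Control rats, also listed at 6 to 7 weeks and 250 g, were uninjured and untreated. Each bladder was microdissected into detrusor, the smooth muscle layer, and mucosa, the urothelium with the tissue beneath it, which gave 6 groups of 3 libraries, all labelled as batch 1. The labels do not say which detrusor and mucosa libraries came from the same rat, nor that the 3 libraries of a group came from different rats, so p-values measure the spread between these libraries.

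Total counts ranged from 3255012 to 6810496 per library. Levels are given as CPM, counts relative to the TMM-scaled library size, and the level of one gene cannot be set against that of another because transcript lengths were not used here. A library's content of the other tissue was estimated from genes more than 4-fold higher in the other control tissue. It was the median distance these genes moved towards that tissue's level, starting from the Control mean of its own tissue without that library. The scale is thus centred on Control by construction, and changes of these genes after injury would count as share. By this measure 1 SCI-vehicle detrusor library (replicate 1) held 25.8% mucosal transcripts, against -1.37% to 10.4% in the other detrusor libraries. The fewest genes with a count, 14126, were in replicate 2 of SCI-inosine detrusor, against 16475 or more in every other library. In mucosa, SCI-inosine replicate 1 and Control replicate 1 held 10.7% and 8.45% detrusor transcripts, against -5.28% to 5.01% in the others. In bulk tissue, fewer cells of a type and less RNA per cell cannot be told apart.

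The promoters of 3 of the genes are shown because Acta2 and Des are the muscle filament genes whose levels were high in the same mucosa libraries, and Kcnma1 is the gene that passed the test after injury. Each is the 150 bases before the annotated start in RefSeq, on build GRCr8 and 5′ to 3′ on the gene's strand. Capitals mark CArG boxes with 1 departure from the motif, TATAAA or TATATA, and GGGCGG on either strand.
Acta2, chr1:241172504-241172653, minus strand: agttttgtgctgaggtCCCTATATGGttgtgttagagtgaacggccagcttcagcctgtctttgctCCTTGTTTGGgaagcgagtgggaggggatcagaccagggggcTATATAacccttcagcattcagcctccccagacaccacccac
Des, chr9:84299476-84299625, plus strand: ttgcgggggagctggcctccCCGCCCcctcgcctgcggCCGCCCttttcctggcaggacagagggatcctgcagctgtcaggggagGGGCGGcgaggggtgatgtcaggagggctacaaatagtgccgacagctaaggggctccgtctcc
Kcnma1, chr15:351775-351924, plus strand: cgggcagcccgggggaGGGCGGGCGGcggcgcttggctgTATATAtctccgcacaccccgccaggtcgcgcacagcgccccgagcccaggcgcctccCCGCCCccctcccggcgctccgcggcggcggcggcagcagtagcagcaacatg

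The CArG box is the sequence bound by serum response factor, a regulator of muscle genes. The Acta2 window held 2 CArG boxes with 1 departure, 134 and 84 bases before the start, and TATATA at 42 bases. Of 33469 promoters of this length, 4.69% held a CArG box with at most 1 departure, 0.878% an exact one, 10% TATAAA or TATATA, and 26% GGGCGG. The Des window held GGGCGG at 3 places and neither of the other motifs. The Kcnma1 window held TATATA at 111 bases and GGGCGG at 134, 130 and 53 bases, the first 2 of which overlap. The Cav1 window (chr4:46606388-46606537) held 1 GGGCGG and the Vim window (chr17:81577111-81577260) TATAAA at 82 bases. Cav1 had 2 annotated starts, and only the window of the first listed was examined. These matches describe letters only, and the build differs from that used for the counts.

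The first comparison asked how the genes differ between the tissues. In Control rats, Acta2, Des, Cav1 and Kcnma1 were lower in mucosa than in detrusor and Vim was higher. All 5 passed edgeR's quasi-likelihood test with Benjamini-Hochberg adjustment, against 44.5% of all genes tested, and all 5 were without overlap between the tissues, against 56.8% of all genes. The median log2 difference was -1.63 for the 5 genes and 0.07 for all genes.

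**Figure D1:**
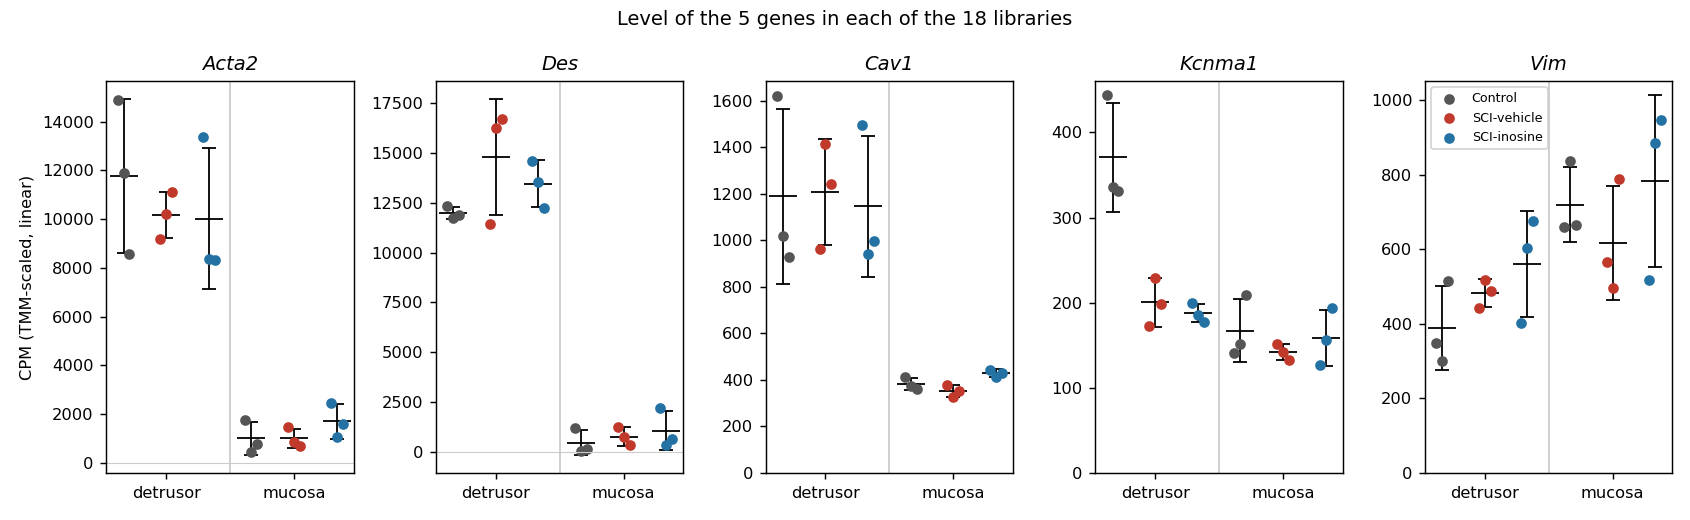
Level of each gene in CPM (TMM-scaled, linear axes that differ between panels) in the 18 libraries, grouped by tissue, with 1 point per library, a horizontal bar at the mean of each group of 3 and error bars of 1 SD. Acta2, Des and Cav1 were lower in every mucosa library than in every detrusor library, and Kcnma1 in Control detrusor (331.8 to 444.5 CPM) lay above every other library.

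Des, desmin, had the largest difference. In Control detrusor it was at 12325, 11747 and 11890 CPM, a mean of 11987 ± 301 (SD, n = 3), and in Control mucosa at 1197, 58.4 and 152 CPM. The detrusor libraries lay close together, whereas the mucosa libraries spread over 20.5-fold and replicate 1 held most of the signal. Mucosa was 25.6-fold lower in the fit (log2 difference -4.68 ± 0.93 SE, adjusted p = 0.000615 by edgeR). The difference was 19.3-fold in SCI-vehicle (log2 -4.27 ± 0.91, adjusted p = 0.00119 by edgeR) and 12.7-fold in SCI-inosine rats (log2 -3.67 ± 0.88, adjusted p = 0.00342 by edgeR). Single libraries moved these values, to -6.83 in Control without mucosa replicate 1 and to -4.75 in SCI-inosine without mucosa replicate 1.

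Acta2, smooth muscle alpha-actin, was at 14883, 11878 and 8552 CPM in Control detrusor and at 1764, 451 and 770.0 CPM in Control mucosa. The tissues did not overlap in any condition, as for 60.7% of all genes in SCI-vehicle and 50.3% in SCI-inosine rats. Mucosa was 11.8-fold lower in Control (log2 -3.56 ± 0.48, adjusted p = 1.88e-05 by edgeR), 10.2-fold lower in SCI-vehicle and 5.91-fold lower in SCI-inosine rats. Without mucosa Control replicate 1 the log2 difference in Control was -4.27. The protein encoded by Acta2 is nearly the same as other muscle actins. Whether reads shared between their genes were assigned elsewhere or dropped was not examined, and the counts of Acta2 are uncertain to that extent.

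Cav1, caveolin-1, was at 1621, 1021 and 928 CPM in Control detrusor and at 411, 376 and 362 CPM in Control mucosa. Its groups did not overlap between tissues in any condition. Mucosa was 3.10-fold lower in Control (log2 -1.63 ± 0.22, adjusted p = 1.81e-05 by edgeR), 3.42-fold lower in SCI-vehicle and 2.67-fold lower in SCI-inosine rats.

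Kcnma1, the BK channel pore, was at 444.5, 335.7 and 331.8 CPM in Control detrusor and at 140, 152 and 209 CPM in Control mucosa. Every Control detrusor library was above every Control mucosa library, with a fitted level 2.22-fold lower in mucosa (log2 -1.15 ± 0.18, adjusted p = 7.73e-05 by edgeR). In SCI-vehicle rats mucosa was 1.41-fold lower (log2 -0.50 ± 0.18, adjusted p = 0.0307 by edgeR), a call that was lost without any 1 of SCI-vehicle replicates 2 and 3 of either tissue (log2 -0.50 to -0.39, adjusted p 0.0643 to 0.126). In SCI-inosine rats the log2 difference was -0.24 ± 0.18 (adjusted p = 0.289 by edgeR), with a 95% interval from -0.59 to 0.11.

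Vim, vimentin, was the only one of the 5 genes with a higher level in Control mucosa. It was at 348, 300.8 and 515 CPM in Control detrusor and at 660, 836 and 665 CPM in Control mucosa, a 1.86-fold higher level in mucosa without overlap (log2 0.89 ± 0.26, adjusted p = 0.00998 by edgeR). Without detrusor Control replicate 2 the log2 difference was 0.74 and the adjusted p 0.0530. In SCI-vehicle and SCI-inosine rats the log2 differences were 0.35 ± 0.26 and 0.48 ± 0.26 (adjusted p = 0.271 and 0.14 by edgeR), and the tissues overlapped. In all, 4 of the 5 genes passed in SCI-vehicle and 3 in SCI-inosine rats, against 47.1% and 42.7% of all genes.

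The second comparison asked what spinal cord injury changed in detrusor. Kcnma1 was lower in all 6 injured detrusor libraries than in any of the 3 Control libraries, while the other 4 genes overlapped between injured and Control libraries. Kcnma1 was at 172, 229.4 and 199.0 CPM in SCI-vehicle and at 199.7, 186 and 178 CPM in SCI-inosine detrusor. The mean was 371 ± 64.0 CPM in Control, against 200.3 ± 28.5 after injury with vehicle and 188 ± 11.0 with inosine (SD, n = 3 each), on raw counts of 807 to 1835.

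In SCI-inosine against Control, Kcnma1 fell 1.97-fold (log2 -0.98 ± 0.16, adjusted p = 0.0389 by edgeR). It was the only one of the 5 genes to pass, against 0.292% of all genes tested and 0.102% in the lower direction. In SCI-vehicle against Control, the fitted level was 1.83-fold lower (log2 -0.87 ± 0.16, adjusted p = 0.0613 by edgeR) and missed the threshold, which 0.0762% of all genes passed. With the same libraries DESeq2 gave a log2 change of -0.88 and an adjusted p of 9.81e-05 for SCI-vehicle. In that comparison DESeq2 called 335 of the 15740 genes, against 12 by edgeR. Non-overlap was common, with 20.5% of all genes without overlap in SCI-vehicle against Control and 18.6% in SCI-inosine against Control.

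With both injured groups against Control, Kcnma1 fell 1.90-fold (log2 -0.93 ± 0.13, adjusted p = 0.0152 by edgeR). Of all genes, 0.413% passed this test (0.235% in the lower direction) and 5.02% were lower in every injured library than in every Control library. An exact permutation test of the log2 CPM of Kcnma1 over 6 injured and 3 Control libraries gave p = 0.0238 (two-sided), the smallest this design allows, or 0.238 adjusted over the 5 genes in 2 tissues (10 tests).

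The call on Kcnma1 did not hold when some single libraries were left out. In SCI-inosine against Control it was lost without any 1 of Control replicates 1 and 2, SCI-vehicle replicates 2 and 3 and SCI-inosine replicates 2 and 3 (log2 -1.05 to -0.83, adjusted p 0.0569 to 0.177 by edgeR). SCI-vehicle replicates 2 and 3 share the fit but are not in this comparison. Without replicate 2 or 3 of SCI-vehicle the log2 change stayed at -0.98. The unadjusted p was then 7.95e-05 and 0.00013 by edgeR, against 5.75e-05 with all 9 libraries. The largest unadjusted p where the call was lost was 0.000525 by edgeR, without SCI-inosine replicate 3. Over both injured groups the call was lost without any 1 of Control replicates 1 and 2 and SCI-vehicle replicate 3 (log2 -0.99 to -0.77, adjusted p 0.0501 to 0.132 by edgeR). Without detrusor Control replicate 1, the highest library, the log2 change was -0.83 in SCI-inosine (adjusted p = 0.156 by edgeR) and -0.77 over both injured groups (adjusted p = 0.0747 by edgeR). The share of mucosal transcripts was -1.37% to 1.55% in Control detrusor, on which its scale is centred by construction. It was 1.60% to 25.8% with vehicle and 3.97% to 10.4% with inosine. Without SCI-vehicle replicate 1 and SCI-inosine replicate 2, left out together after the data were seen, the log2 change was -0.77 in SCI-vehicle, -0.97 in SCI-inosine and -0.87 over both (adjusted p = 0.181, 0.119 and 0.0531 by edgeR). With this share as a covariate the log2 change was -0.87 in SCI-inosine (adjusted p = 0.109 by edgeR) and -0.81 over both injured groups (adjusted p = 0.0962 by edgeR). Every injured library had a higher share than every Control library, so the share and injury cannot be fully told apart in these libraries. The margin was narrow, from 1.55% in Control replicate 3 to 1.60% in SCI-vehicle replicate 3. Kcnma1 was at 331.8 CPM in the former and 199.0 CPM in the latter. How far the share accounts for the level of Kcnma1 was not tested. Over all 9 detrusor libraries, log2 Kcnma1 and the share gave Spearman's rho = -0.93 (exact permutation p = 0.00075, adjusted over 10 relations 0.0025) and Pearson's r = -0.65 (p = 0.0502, adjusted 0.167), or r = -0.81 without SCI-vehicle replicate 1 and SCI-inosine replicate 2. These values include the difference between Control and injured libraries, which form separate clusters of Kcnma1. Among the 6 injured libraries alone, r was -0.75 (p = 0.101) and rho -0.77 (p = 0.103) by exact permutation.

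**Figure D2:**
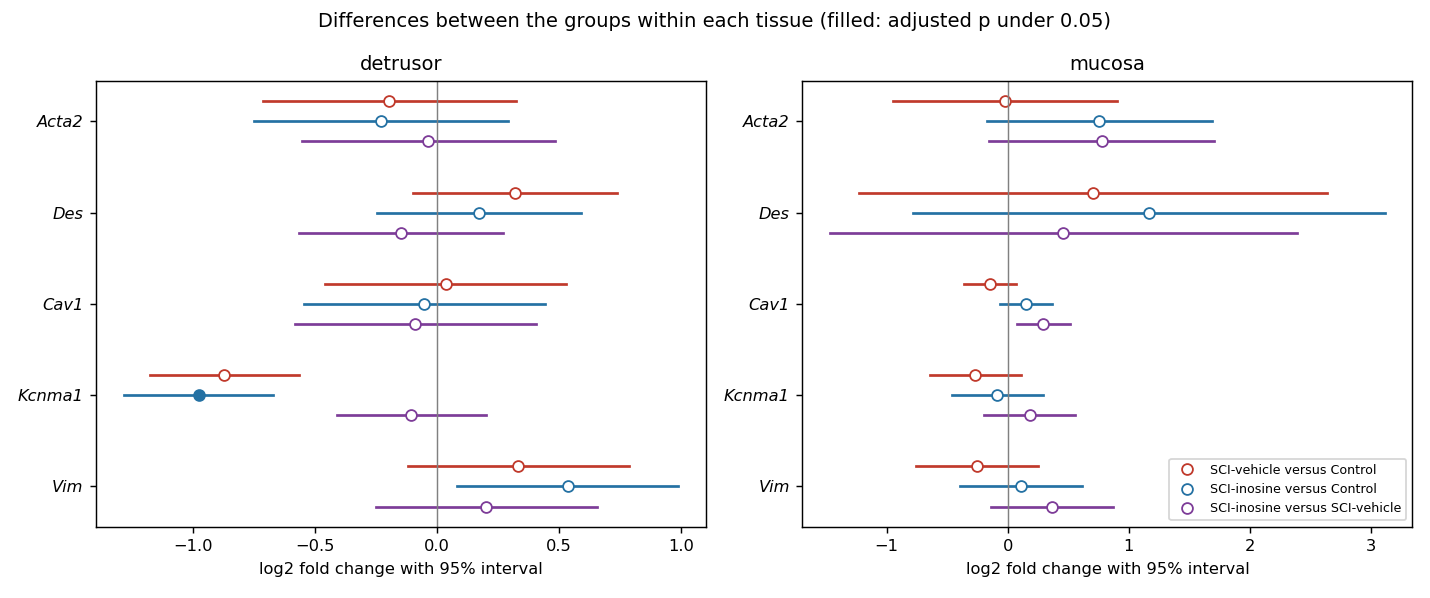
Log2 fold change of each gene with its 95% interval in 3 comparisons per tissue, from edgeR's fit of the 9 libraries of a tissue, where filled points have an adjusted p under 0.05. Kcnma1 in SCI-inosine against Control detrusor (-0.98) is the only filled point, and the horizontal axes of the panels differ because Des in mucosa spread more widely.

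The cytoskeletal genes and Cav1 gave smaller differences in detrusor. Des was at 11448, 16280 and 16694 CPM in SCI-vehicle and at 14596, 13557 and 12265 CPM in SCI-inosine detrusor. These overlapped Control, with log2 differences of 0.32 ± 0.21 and 0.17 ± 0.21 (adjusted p = 0.562 and 0.736 by edgeR). Acta2 was at 9186, 10225 and 11093 CPM in SCI-vehicle and at 13376, 8358 and 8339 CPM in SCI-inosine detrusor. The log2 differences from Control were -0.20 ± 0.27 and -0.23 ± 0.27 (adjusted p = 0.803 and 0.711 by edgeR), inside a Control range that spanned 1.74-fold on its own apart from 2 SCI-inosine libraries just under it.

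Cav1 was at 963, 1415 and 1244 CPM in SCI-vehicle and at 1497, 943 and 999 CPM in SCI-inosine detrusor, all within the Control range. The log2 differences were 0.04 ± 0.25 and -0.05 ± 0.25 (adjusted p = 0.973 and 0.945 by edgeR), and the 95% intervals reached from -0.46 to 0.53 and from -0.55 to 0.44. Vim was at 443, 519 and 490 CPM in SCI-vehicle and at 401, 604 and 677 CPM in SCI-inosine detrusor. Its log2 differences were 0.33 ± 0.23 (adjusted p = 0.582 by edgeR) and 0.54 ± 0.23 (unadjusted p = 0.0413, adjusted p = 0.349 by edgeR), with overlap in both. Of all genes, 13.6% had an unadjusted p under 0.05 in SCI-inosine against Control detrusor.

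Ratios of 2 genes within a library do not depend on how libraries are scaled. In detrusor, Kcnma1 was lower relative to each of the other 4 genes in every injured library than in any Control library. The fold was 1.65 relative to Acta2, 2.22 relative to Des, 1.90 relative to Cav1 and 2.59 relative to Vim. Each gave p = 0.0238 in an exact two-sided permutation test of 6 injured against 3 Control libraries, the smallest p possible, and 0.119 adjusted over all 20 ratios (10 pairs of genes in 2 tissues). The 4 ratios share Kcnma1, which was itself lower without overlap, and are not independent. How common such ratios are among all genes was not computed. None of the other 6 ratios in detrusor and none of the 10 in mucosa was without overlap. The ratio of Acta2 to Des was 0.43 lower on the log2 scale in injured detrusor (exact permutation p = 0.0952, adjusted 0.317).

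**Figure D3:**
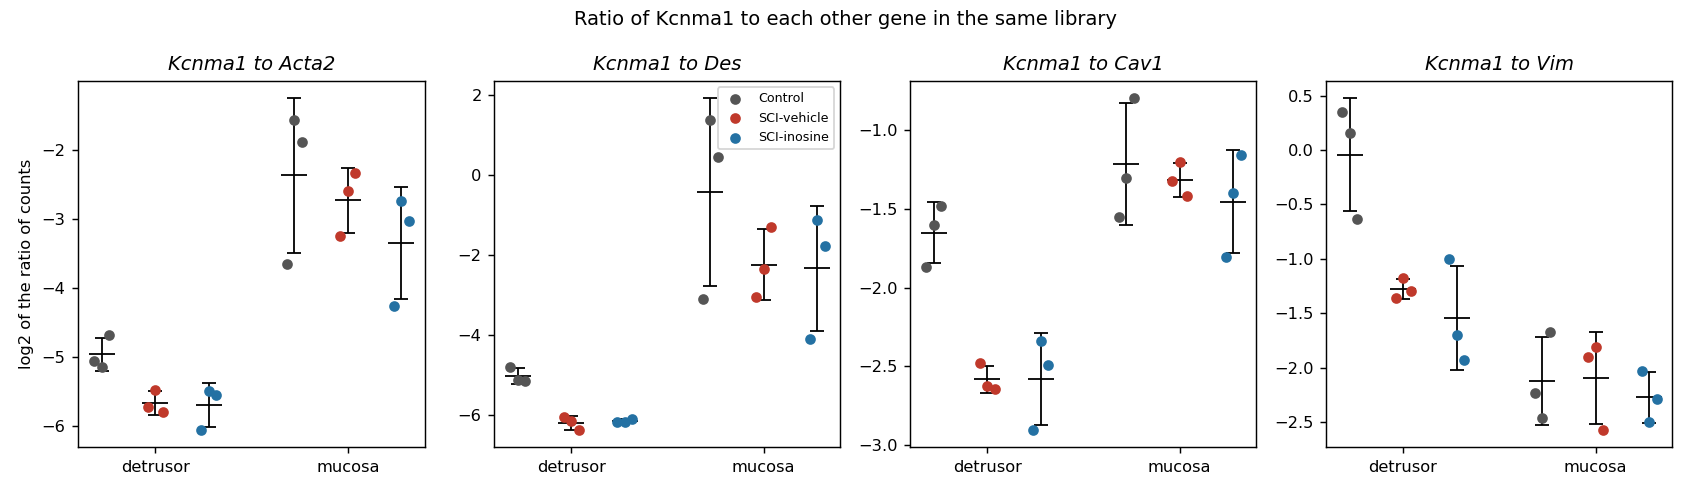
Log2 ratio of the counts of Kcnma1 to those of Acta2, Des, Cav1 and Vim in each of the 18 libraries, with 1 point per library, a bar at the mean of each group of 3 and error bars of 1 SD, on vertical axes that differ between panels. In detrusor every Control point lies above every injured point in all 4 panels, and in mucosa the groups overlap.

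The third comparison asked whether inosine changed the genes after injury. In detrusor, none of the 5 genes passed in SCI-inosine against SCI-vehicle and all 5 overlapped, where 9.28% of all genes did not. Across all genes edgeR called 0 (0%), and 4.38% had an unadjusted p under 0.05. The log2 difference of Kcnma1 was -0.11 ± 0.16 (95% interval -0.41 to 0.20). The log2 differences of Acta2, Des, Cav1 and Vim were -0.04 ± 0.27, -0.15 ± 0.21, -0.09 ± 0.25 and 0.20 ± 0.23.

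In mucosa, none of the 5 genes passed any comparison between the conditions. Among all genes, edgeR called 0% in SCI-vehicle against Control and in SCI-inosine against Control (10.2% and 5% at an unadjusted p under 0.05), and 0.00635% in SCI-inosine against SCI-vehicle. For both injured groups against Control it also called 0%, with 8.24% at an unadjusted p under 0.05. Cav1 had the smallest fitted variation of the 5 genes over the 9 mucosa libraries (12.9%), at 380, 326 and 353 CPM in SCI-vehicle and 444, 412 and 431 CPM in SCI-inosine mucosa. The SCI-inosine libraries were above those of both other groups, as were 4.71% of all genes against each of those groups. The log2 difference was 0.29 ± 0.11 from SCI-vehicle (unadjusted p = 0.0232, adjusted p = 0.881 by edgeR) and 0.15 ± 0.11 from Control (adjusted p = 0.998 by edgeR). Of all genes, 5.53% had an unadjusted p under 0.05 in SCI-inosine against SCI-vehicle mucosa.

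Kcnma1 in mucosa was at 151, 141.5 and 132 CPM in SCI-vehicle and at 127, 156 and 193 CPM in SCI-inosine libraries, overlapping Control. Its log2 differences from Control were -0.27 ± 0.19 and -0.09 ± 0.19 (adjusted p = 0.657 and 0.998 by edgeR). Vim in mucosa was at 565, 496 and 789 CPM in SCI-vehicle and at 519, 886 and 947 CPM in SCI-inosine libraries. Its log2 differences from Control were -0.25 ± 0.26 and 0.11 ± 0.26 (adjusted p = 0.765 and 0.998 by edgeR).

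Des and Acta2 varied most in mucosa. Des was at 1254, 725 and 327 CPM in SCI-vehicle and at 2183, 341 and 657 CPM in SCI-inosine mucosa, and Acta2 at 1446, 860 and 670.3 CPM and at 2456, 1040 and 1587 CPM. The log2 differences from Control were 0.70 ± 0.99 and 1.16 ± 0.99 for Des (adjusted p = 0.842 and 0.998 by edgeR) and -0.02 ± 0.47 and 0.76 ± 0.47 for Acta2 (adjusted p = 0.994 and 0.998 by edgeR). Without mucosa Control replicate 1 the log2 differences of Des were 2.81 and 3.28 and those of Acta2 0.65 and 1.43, and without SCI-inosine replicate 1 that of Des in SCI-inosine was 0.12, with none called. The fitted coefficient of variation between mucosa libraries was 78.4% for Des and 40.4% for Acta2, against 19.99% over all genes.

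These levels followed the share of detrusor transcripts in the library, which was computed without the 5 genes. Acta2 and Des themselves meet the rule that chose the genes of the share. The relation therefore describes genes of the same kind and is not an independent test. Over the 9 mucosa libraries, log2 Acta2 and the share gave Pearson's r = 0.95 (exact permutation p = 8.54e-05, adjusted over 10 relations 0.000854) and Spearman's rho = 0.95 (p = 0.000353, adjusted 0.00176). Des gave r = 0.92 (exact permutation p = 0.000413, adjusted 0.00207) and rho = 0.97 (p = 0.000165, adjusted 0.00165). Without the 2 libraries farthest from the median share, SCI-inosine replicate 1 and Control replicate 1, r was 0.93 for Acta2 and 0.94 for Des. For Cav1, Kcnma1 and Vim r was 0.62, -0.40 and -0.48 (exact permutation, adjusted p = 0.200, 0.348 and 0.268).

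**Figure D4:**
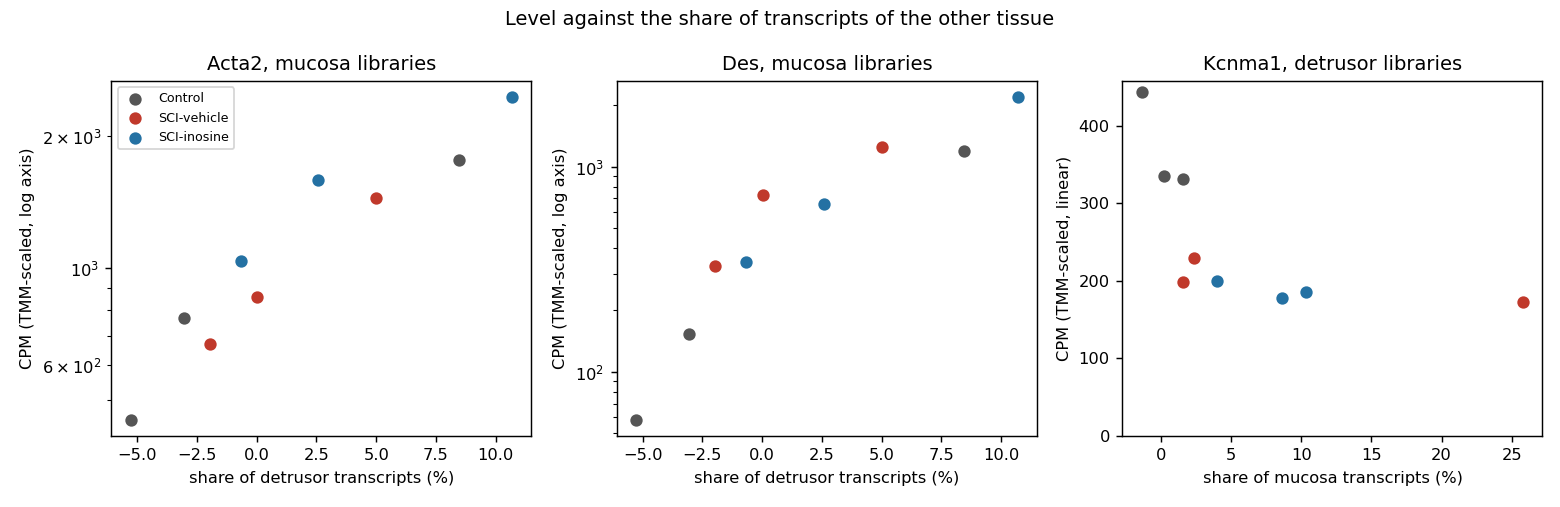
Level against the estimated share of transcripts of the other tissue (%), 1 point per library, for Acta2 and Des in the 9 mucosa libraries (log axes) and Kcnma1 in the 9 detrusor libraries (linear axis). Acta2 and Des were highest in the mucosa libraries with the largest share of detrusor transcripts, and Kcnma1 was lower in the detrusor libraries with a larger share of mucosal transcripts (rho = -0.93), where all 3 Control libraries had the smallest shares and the highest Kcnma1.

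The difference between the tissues in the response was tested as an interaction in one model of all 18 libraries. Kcnma1 had the smallest unadjusted p of the 5 genes in both interactions against Control. Its change from Control was 0.91 ± 0.25 higher on the log2 scale in mucosa than in detrusor for SCI-inosine (unadjusted p = 0.00229, adjusted p = 0.295 by edgeR) and 0.65 ± 0.25 higher for SCI-vehicle (unadjusted p = 0.0195, adjusted p = 0.361 by edgeR). Neither passed, so a difference between the tissues in the response of Kcnma1 was not shown. None of the 5 genes passed in any of the 3 interactions, where 0.121%, 0% and 0% of all genes did. For the 0% tests, SCI-inosine against Control and SCI-inosine against SCI-vehicle, 10.4% and 3.87% of all genes had an unadjusted p under 0.05. For the interaction of SCI-vehicle against Control this share was 11%.

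In the order of the 6 group means, Acta2, Des and Cav1 had the 3 detrusor groups above the 3 mucosa groups with a gap between the tissues. For Kcnma1 the gap lay elsewhere, since Control detrusor stood above the rest, and SCI-vehicle detrusor, SCI-inosine detrusor and the mucosa groups followed with each neighbour overlapping the next. For Vim the order ran from SCI-inosine mucosa (784 ± 231 CPM) down to Control detrusor (388 ± 113 CPM), and every neighbour overlapped the next.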

How the data were processed

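Total RNA of 18 libraries was depleted of ribosomal RNA, made into stranded libraries and sequenced as 51 bp paired-end reads on 2 flow cells. The authors deposited raw counts per gene, added over both flow cells and not normalized, for 32754 Ensembl genes, with 0 columns left unused. The submitters' processing notes name FastQC 0.11.9, MultiQC 1.13, Trim Galore 0.6.10, STAR 2.7.10a, SAMtools 1.17, featureCounts 2.0.3 and build Rnor_6.0. The strand setting of the counting is not given in the sources used here.

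Genes over 1 CPM in at least 3 of 18 libraries (15740) were scaled by TMM and tested with the quasi-likelihood F test of edgeR 4.0.16 in R 4.3.3 (two-sided), with the 9 libraries of a tissue fitted together by group. Tissue differences and interactions came from one model of 18 libraries. P-values were adjusted by Benjamini-Hochberg over all genes tested, with a threshold of 0.05. The script was tested on simulated data. Ratios within libraries and single values were tested by exact permutation. The share of the other tissue used 316 genes in detrusor and 341 in mucosa libraries, over 4-fold higher and over 50 CPM in the other control tissue.

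The 5 genes and the lists were chosen with earlier results of these data known. By the naming rule all 5 genes were given in full. The planned lists of related genes, cell type markers and genes of like pattern were not run, since the tables used here do not pair Ensembl identifiers with symbols. The names of the 5 genes came with the choice. Promoters are from RefSeq on GRCr8 (5 of 5 matched by symbol) and were not combined with Rnor_6.0 coordinates. Libraries of a group were compared before averaging, and 0 pairs were identical. Alternatives were DESeq2 1.42.0 (used by the authors in another version), its size factors, upper quartile scaling, other filters, fits of the groups compared alone or of all 18 libraries, a replicate block, the share as a covariate, a pseudocount of 1 for ratios, and leaving out libraries.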

Additional observations from a re-analysis of the deposited data

How the results depend on the processing

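Of single values under the alternatives, 1604 kept their direction and side of the threshold, 19 lost a call, 4 gained one and 67 changed sign. Of counts of the 5 genes called or of the ratios between them called, 302 stayed within 1.5 times and 17 moved. Those that moved were all counts of genes called in detrusor. Kcnma1 stayed lower than Control in detrusor under every alternative run. In SCI-vehicle it ranged from -0.98 to -0.72 (log2; adjusted p 9.81e-05 to 0.303), in SCI-inosine from -1.05 to -0.83 (3.93e-06 to 0.177, called in 10 of 19 alternatives) and over both from -0.99 to -0.77 (1.64e-07 to 0.132, called in 13 of 18).

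In SCI-vehicle against Control the number of the 5 genes called went from 0 to 1 with DESeq2, no filter (adjusted p of Kcnma1 0.0185) and all 18 libraries in one model (0.0472). In SCI-inosine against Control it went from 1 to 0 with only the groups compared (0.0651), the share as covariate and 2 libraries left out, and over both injured groups from 1 to 0 with the last 2 of these. Leaving out 1 library gave 0 to 1 in both. The cause was not tested. Over all genes, the number called ran from 0 to 335 in detrusor for SCI-vehicle against Control (12 as reported), 0 to 349 for SCI-inosine against Control (46), 0 to 10 for SCI-inosine against SCI-vehicle (0) and 0 to 577 for both injured groups (65). In mucosa these were 0 to 81 (0), 0 to 17 (0), 0 to 13 (1) and 0 to 39 (0), and for the interactions 1 to 183 (19), 0 to 70 (0) and 0 to 0 (0). In detrusor the highest number in each comparison came with DESeq2. DESeq2 gave Des no adjusted p between the tissues or in the interactions. Des in mucosa also moved in size, from 0.15 to 2.81 in SCI-vehicle and from 0.12 to 3.28 in SCI-inosine against Control, and from -6.89 to -4.15 between the Control tissues.

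Replicate numbers are shared by the groups. Deviations of same-numbered libraries correlated at -0.32 to 0.57 within a tissue (7 of 18 pairs over 0.1). Within a condition across tissues they correlated at 0.01 to 0.26 (4 of 9 over 0.1). Libraries of different numbers were not compared, so these values do not tell whether the numbers pair the libraries. With the replicate block Kcnma1 in detrusor was at -0.86 in SCI-vehicle, -0.97 in SCI-inosine and -0.92 over both (adjusted p 0.0704, 0.0446 and 0.0257), and no call on the 5 genes changed. The block turned Cav1 in injured detrusor to 0.025 and Acta2 in SCI-vehicle mucosa to 0.12.

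None of the values that changed sign had passed the threshold. With the share as covariate, Cav1 in detrusor was 0.14 in SCI-inosine and 0.21 over both injured groups. In mucosa it gave Kcnma1 0.017 in SCI-inosine, Des -0.60 between SCI-inosine and SCI-vehicle, and Cav1 -0.018 and Vim 0.019 over both injured groups. Cav1 there was -0.0078 with upper quartile scaling and -0.0062 with no filter. With 2 libraries left out, Cav1 in detrusor was 0.076 in SCI-inosine and 0.13 over both, Acta2 0.00692 between the injured groups, and in mucosa Acta2 was 0.65 in SCI-vehicle and Des -0.58 between the injured groups. With 4 left out, the Des interaction between the injured groups was -0.33.

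Leaving out each library in turn changed the sign in detrusor of Acta2 in SCI-vehicle (-0.36 to 0.011) and between the injured groups (-0.29 to 0.078), and of Cav1 in SCI-vehicle (-0.094 to 0.33), SCI-inosine (-0.29 to 0.24), between them (-0.32 to 0.035) and over both (-0.14 to 0.28). In mucosa it did so for Acta2 in SCI-vehicle (-0.39 to 0.65), Des between the injured groups (-0.59 to 1.01), Kcnma1 in SCI-inosine (-0.27 to 0.12) and over both (-0.31 to 0.027), Vim in SCI-inosine (-0.059 to 0.35) and over both (-0.19 to 0.057), and Cav1 over both (-0.026 to 0.038). Among interactions it did so for SCI-vehicle in Acta2 (-0.17 to 0.91), Des (-0.14 to 2.57) and Cav1 (-0.43 to 0.011), for SCI-inosine in Des (-0.078 to 3.17) and Cav1 (-0.071 to 0.46), and between them in Des (-0.49 to 1.15) and Vim (-0.059 to 0.36). Among log2 ratios it did so for Des to Cav1 in detrusor (-0.0035 to 0.37) and in mucosa for Cav1 to Vim (-0.021 to 0.22), Cav1 to Kcnma1 (-0.043 to 0.33) and Kcnma1 to Vim (-0.23 to 0.16). With 3 libraries a group, changes of the size of these errors were not detectable.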
